A study of Homo sapiens with 172 samples.

Results

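The desmosomal cadherin genes lie side by side on human chromosome 18, and CDH2, the gene of N-cadherin, lies next to them. Their contact with the nuclear lamina was taken from the 100 kb bins (hg19) that overlap them. The cluster, with DSC3, DSC2, DSC1, DSG1, DSG4, DSG3 and DSG2 in this order, overlapped the bins from 28500001 to 29200000 of chromosome 18, and CDH2 those from 25500001 to 25800000. This gave 10 bins, 7 for the cluster and 3 for CDH2, of 26414 covered bins in all and 751 on chromosome 18. The other 60 bins from 24 to 31 Mb served for comparison. Positions of single genes within the cluster are not given in hg19 in the sources used here, so bins are named by their place between the DSC3 end, at the lowest coordinate, and the DSG2 end, at the highest.

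Desmosomal cadherins are the adhesion molecules of desmosomes, the junctions that couple the keratin filaments of neighbouring epithelial cells and the desmin filaments of heart muscle cells. Desmogleins (DSG) and desmocollins (DSC) of facing cells bind each other, and inside the cell they are held by plakoglobin, plakophilins and desmoplakin. N-cadherin is a classical cadherin of neurons, heart muscle and mesenchymal cells that is linked to actin through catenins. The nuclear lamina is a meshwork of lamin proteins that lines the nucleus, and the regions that touch it are mostly poor in genes and rich in genes that the cell does not use.

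All samples form 1 group: haploid (1N) KBM7 cells, a near-haploid human myeloid leukaemia line, of clone 5-5, which carry Dam methyltransferase fused to LaminB1 and were given 0.5 nM Shield1 for 15 h. Dam methylates the adenine of GATC near the lamina, and DpnI cuts the DNA at these sites, so that reads mark contacts of the last hours. Among cells with both Fucci markers of the cell cycle, the smallest 2% were sorted one by one. No cells without the fusion, no uninduced cells and no second clone are analysed here, the assay gives no RNA, and whether these cells use any of the 8 genes was not measured.

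The deposited values were ratios of observed over expected reads for 168 of 172 labelled samples. All 168 columns had their best match in the column 86 numbers away, and in all 84 such pairs the difference between the columns was below sampling noise (chi-square per bin under 1, while the lowest of the 13944 other combinations was 1.41). The columns of a pair were averaged and counted as 1 cell, n = 84. A ratio of 1 or more counted as contact, and contact frequency is the percent of the 84 cells in contact. Cells of 1 clone are not replicates, so no p-value was computed, SDs describe the spread between cells, and exact Clopper-Pearson 95% intervals cover counting error only. The deeper column of a cell held 7134 to 418937 reads (median 63700). A ratio of 1 in the 10 bins corresponded to 2.29 to 3.38 reads at median depth. In 13 cells it corresponded to less than 1 read in the median member bin, so that calls there rest on very few reads. A single read in the deeper column did not always make a contact, since the 2 columns are averaged. In cell 53 the deeper column had 1 read in the cluster, and no cluster bin was in contact. In cell 16 it also had 1 read there, and 1 cluster bin was in contact. In cell 7 it had 0 reads there, and still 1 cluster bin was in contact. In cell 5 chromosome 18 had 218 reads, or 0.465% of the cell, against a median of 3.53% over cells and 1.31% in the next lowest cell, and 0 of the 60 comparison bins were in contact in it.

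Since the fusion marks GATC, promoter sequences (250 bases before the gene start, RefSeq, GRCh38.p14) were searched for it. Promoters were found for 7 of the 8 genes, with a second start for CDH2 and for DSC2. GATC, which reads the same on both strands, stood in 4 of these 9 sequences, against 35.8% of 35116 promoters of the same length. It was present at both CDH2 starts, at 1 of 2 DSC2 starts and at 2 sites before DSG1. The promoters of CDH2 (1 site) and DSG2 (none), the first and last of the 8 genes along the chromosome, are shown with GATC in capitals. They lie at chr18:28177131-28177380, minus strand, and chr18:31497927-31498176, plus strand, in GRCh38.p14, coordinates that were not set against the hg19 bins.
CDH2: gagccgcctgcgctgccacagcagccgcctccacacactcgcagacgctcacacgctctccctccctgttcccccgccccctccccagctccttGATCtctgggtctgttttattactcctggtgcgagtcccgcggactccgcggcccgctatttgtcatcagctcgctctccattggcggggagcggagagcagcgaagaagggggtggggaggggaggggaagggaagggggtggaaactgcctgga
DSG2: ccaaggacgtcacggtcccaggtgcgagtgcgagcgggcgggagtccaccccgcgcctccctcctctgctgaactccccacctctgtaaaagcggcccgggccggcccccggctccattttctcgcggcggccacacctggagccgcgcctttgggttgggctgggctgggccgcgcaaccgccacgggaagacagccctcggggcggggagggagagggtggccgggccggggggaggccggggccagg
They hold more CpG dinucleotides than the promoters of DSC1, DSG1 and DSG3. The CDH2 start shown has 17 and DSG2 26, against 1 for DSC1, 3 for DSG1 and 4 for DSG3. The median over all promoters was 11. DSC3 had 18, DSC2 12 and 19 at its 2 starts, and the second CDH2 start only 4, so the count did not follow the tissue of the protein throughout.

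DSG1 and DSG3, the desmogleins of the upper and lower epidermis that are the targets of the autoantibodies of pemphigus, shared the longest stretch of any pair of different member genes. It is 20 bases long, in capitals below, against 7 to 12 bases in the other 33 pairs of sequences, and it was found in no other promoter of the table. Counted from the gene start it begins at base -120 in DSG1 and -78 in DSG3. The sequences are from chr18:31317910-31318159 and chr18:31447491-31447740, plus strand, GRCh38.p14.
DSG1: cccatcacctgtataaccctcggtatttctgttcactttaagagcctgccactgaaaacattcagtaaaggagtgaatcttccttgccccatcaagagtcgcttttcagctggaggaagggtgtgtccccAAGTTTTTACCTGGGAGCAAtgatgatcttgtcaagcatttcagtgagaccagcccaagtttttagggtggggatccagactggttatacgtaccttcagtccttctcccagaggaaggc
DSG3: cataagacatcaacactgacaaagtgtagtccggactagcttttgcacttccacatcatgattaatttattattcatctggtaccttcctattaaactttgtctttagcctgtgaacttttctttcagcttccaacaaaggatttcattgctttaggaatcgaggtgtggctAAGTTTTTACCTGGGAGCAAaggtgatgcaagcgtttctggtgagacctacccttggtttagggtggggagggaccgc
These matches describe the letters only. A bin of 100 kb holds many GATC sites, and no value was measured for a promoter alone.

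The first question was how often the 7 desmosomal genes touch the lamina. The cluster bins were in contact in 49.8% ± 35.9 (SD over 84 cells) of cells on average, and CDH2 in 54.8% ± 40.0. Of the 7 cluster bins 4 were in contact in at least 50% of cells, and of the 3 CDH2 bins 2 were, against 30.7% of all covered bins and 39.0% of the bins of chromosome 18. In the rest of the window 50 of the 60 bins were, among them all 27 between the loci, so neither locus exceeded its surroundings. All 10 bins reached 20% of cells, as did 47.7% of all covered bins and 57.4% of those of chromosome 18. Under 20% there were therefore 0 of the 10 bins, against 52.3% of all covered bins, 42.6% of those of chromosome 18 and 6 of the 60 other bins of the window, 5 of which lie right of the cluster. In the remaining part of chromosome 18 outside 24 to 31 Mb the mean was 31.3% ± 11.4, so the cluster was higher by 18.5 ± 31.9 points and higher in 56 of 84 cells.

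At the DSC3 end, at the low-coordinate side of the desmocollin genes, the bin from 28500001 to 28600000 was in contact in 51 of 84 cells, or 60.7% (interval 49.5 to 71.2%). Its ratio ran from 0 to 8.34 with a median of 1.45. The next bin, from 28600001 to 28700000, was lower, with contact in 39 cells (46.4%, 35.5 to 57.6%), a median ratio of 0.779 and a highest of 9.20. Desmocollin-3 is a protein of the basal layers of stratified epithelium, desmocollin-2 is the form of simple epithelia and heart, and desmocollin-1 that of the upper epidermis. The bins from 28700001 to 28800000 and from 28800001 to 28900000 were each in contact in 46 cells (54.8%, 43.5 to 65.7%), with median ratios of 1.12 and 1.26 and highest ratios of 9.03 and 8.67. All 4 of these bins had a ratio of 0 in some cells, 12, 22, 16 and 17 in chromosome order.

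The bin from 28900001 to 29000000 had the highest mean ratio of the cluster, 2.30 ± 2.65 (SD, n = 84), and was in contact in 50 cells (59.5%, 48.3 to 70.1%). Its median ratio was 1.71 and 12 cells had no read. Its highest ratio, 15.9, was in cell 19, the cell with the fewest reads. The intervals of these first 5 bins overlap. Set against each other within cells, the bin from 28600001 was below that from 28500001 by -14.3 ± 44.3 points, lower in 15 cells, higher in 3 and equal in 66, and the bin from 28700001 was above that from 28600001 by 8.33 ± 52.0, lower in 8 cells and higher in 15. The bin from 29000001 to 29100000 was in contact in 40 cells (47.6%, 36.6 to 58.8%), with a median ratio of 0.881 and a highest of 6.38. In this bin 31 cells had a ratio between 0 and 1 and only 13 had no read, so its lower frequency came with weak signal in many cells.

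Over all 84 cells the DSG2 end stood apart. Desmoglein-2 is the desmoglein of simple epithelia and heart muscle, unlike desmoglein-1, -3 and -4, which belong to stratified epithelium and hair follicles. The last bin, from 29100001 to 29200000, of which the cluster's span covers the first part, was in contact in 21 cells (25.0%, 16.2 to 35.6%). Whether DSG2 lies in this bin was not determined. The median ratio was 0.164, the highest was 4.44 in cell 17, and 34 cells had no read there. Its interval lies below those of the other 6 bins, except that it just meets that of the bin from 28600001. It was lower than the share of the first 6 bins in 46 cells and higher in 9, a mean difference of -29.0 ± 43.2 points. Against the bin before it alone it was lower in 22 cells and higher in 3, by -22.6 ± 49.9 points.

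Beyond the cluster the frequency was lower still, and then high again. The bins that follow were in contact in 19.0%, 17.9%, 2.38%, 7.14% and 3.57% of cells, up to 29700000. From 29400001 to 29500000 only 2 of 84 cells were in contact (interval 0.290 to 8.34%) and 73 cells had no read. The bin from 29700001 was back at 48.8% and that from 29900001 at 70.2%. The cluster thus lies at the edge of a stretch of frequent contact, and the fall runs over the last cluster bin and the bins that follow it. By RefSeq order the coding genes after DSG2 are TTR, the gene of the thyroid hormone carrier transthyretin, B4GALT6, a galactosyltransferase of lactosylceramide synthesis, SLC25A52, TRAPPC8 and RNF125, and which of these bins hold them was not determined.

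**Figure D1:**
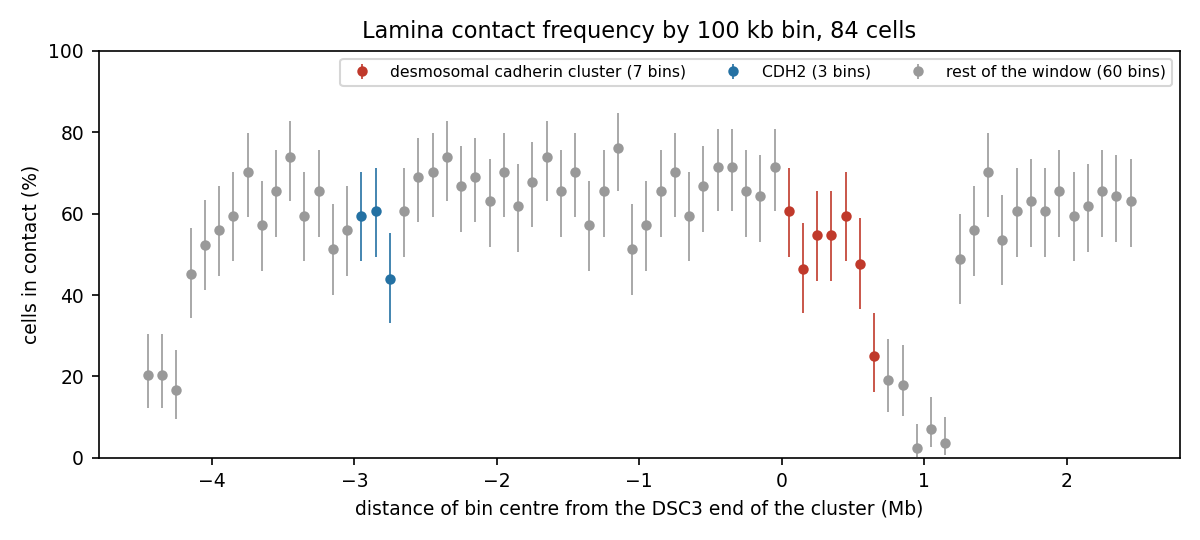
Contact frequency (percent of 84 cells, with exact 95% intervals) of the 70 bins from 24 to 31 Mb of chromosome 18, by distance of the bin centre from the DSC3 end of the cluster in Mb. The cluster bins go down to 25.0% at the DSG2 end, the CDH2 bins lie at 44.0 to 60.7%, and the stretch between them has no bin under 51.2%.

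CDH2 lies inside this stretch of frequent contact, at 2.8 to 3.6 Mb between bins of the loci. The 11 bins before it, from 24400001, were in contact in 51.2 to 73.8% of cells. Its bins from 25500001 to 25600000 and from 25600001 to 25700000 were in contact in 50 cells (59.5%, 48.3 to 70.1%) and 51 cells (60.7%, 49.5 to 71.2%). The bin from 25700001 to 25800000 was lower, with 37 cells (44.0%, 33.2 to 55.3%) and a median ratio of 0.722, against 1.47 and 1.32 in the bins before it. The ratio was 0 in 9, 17 and 20 cells in chromosome order, and the highest ratios were 16.8, 16.0 and 24.7. In 19 cells the middle bin was in contact without the last one, and in 5 cells the last one without the middle. RefSeq lists no coding gene between CDH2 and DSC3, only 13 genes of other kinds. The 27 bins between the loci had a mean frequency of 66.5% ± 29.9, with single bins from 51.2% (27400001 to 27500000) to 76.2% (27300001 to 27400000).

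Over all 84 cells both loci were in contact less often than the stretch between them. The cluster was lower than this stretch by a mean of -16.7 ± 33.2 points, lower in 54 cells and higher in 25, and CDH2 by -11.7 ± 30.9 points, lower in 44 and higher in 29. This did not hold for the cluster in cells 1 to 29, where the cluster had 57.6% and CDH2 50.6%, against 56.1% in the stretch between them. In cells 30 to 86 the cluster had 45.7% and CDH2 57.0%, against 72.0%. Against all 60 other bins of the window, which averaged 56.8% ± 24.0, the differences were -6.96 ± 28.3 points for the cluster and -2.02 ± 30.6 for CDH2. These differences are smaller than the spread between cells, their SD. In the window outside the loci the lowest bin was that from 29400001 to 29500000 and the highest that from 27300001 to 27400000. Between the loci themselves the cluster was lower than CDH2 by -4.93 ± 42.0 points, lower in 43 cells, equal in 10 and higher in 31. In cells 1 to 29 the differences from CDH2 and from the rest of the window had the opposite sign, 7.06 and 5.51 points, against -11.3 and -13.5 points in cells 30 to 86, so neither has a direction that holds in both sets.

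These sets differ in depth: the median cell had 35922 reads among cells 1 to 29, against 124072 among the others. The highest read number in cells 1 to 29 was 90564, so all 35 cells with at least 100000 reads belong to the other set. The contrasts by depth and by cell number therefore overlap, and the values below do not separate them. Between cells with more and with fewer reads, the frequencies of the 2 loci moved differently. CDH2 was in contact in 68.6% ± 36.1 of the 35 cells with at least 100000 reads and in 44.9% ± 40.0 of the 49 cells below, and each of its 3 bins had a higher frequency in the deep cells, with intervals that overlap between the sets. The cluster had 51.4% ± 37.7 in the deep cells and 48.7% ± 35.0 in the others. In the stretch between the loci the values were 81.8% and 55.6%. The last cluster bin was in contact in 22.9% of deep cells (8 of 35, 10.4 to 40.1%) and 26.5% of the others (13 of 49, 14.9 to 41.1%), and the bin at the DSC3 end in 68.6% and 55.1%. By cell number the last bin had 37.9% in cells 1 to 29 (11 of 29, 20.7 to 57.7%) and 18.2% in cells 30 to 86 (10 of 55, 9.08 to 30.9%). In cells 1 to 29 its interval overlaps those of all other cluster bins. In deep cells the cluster was below CDH2 by -17.1 ± 42.5 points (lower in 23 of 35 cells, higher in 9) and below the rest of the window by -15.2 points, and in the others above CDH2 by 3.79 ± 39.9 (lower in 20 of 49, higher in 22). The part of depth in these differences was not tested, nor was that of cell number.

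**Figure D2:**
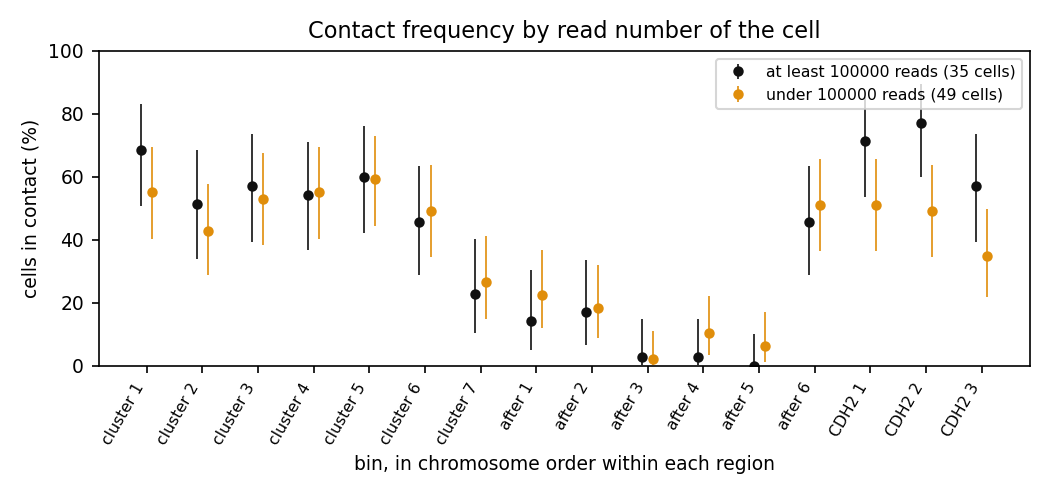
Contact frequency with exact 95% intervals for the 7 cluster bins, the 6 bins after them and the 3 CDH2 bins, in cells with at least and with under 100000 reads in the deeper column. The 3 CDH2 bins lie at 57.1 to 77.1% in the deeper cells and at 34.7 to 51.0% in the others, and the last cluster bin at 22.9% and 26.5%. The intervals of every bin shown overlap between the sets.

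The next question was whether the 7 genes meet the lamina as a unit in single cells. No cluster bin was in contact in 17 cells (20.2%, 12.3 to 30.4%), or 16 of 83 (19.3%) without cell 5, and all 7 were in 12 cells (14.3%, 7.61 to 23.6%). The other 55 cells had 1 to 6 bins in contact, with 4 cells at 3 bins as the least filled class and 14 at 5 bins as the fullest. In these 55 cells the contacted bins formed 1 unbroken run in 25, 2 runs in 25 and 3 or more in 5. The first bin was among them in 39 and the last bin in 9. The share of cells with no cluster bin in contact was 6.90% in cells 1 to 29 and 27.3% in cells 30 to 86. For CDH2, 20 cells had no bin in contact, 20 had 1, 14 had 2 and 30 had all 3 (35.7%, 25.6 to 46.9%).

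**Figure D3:**
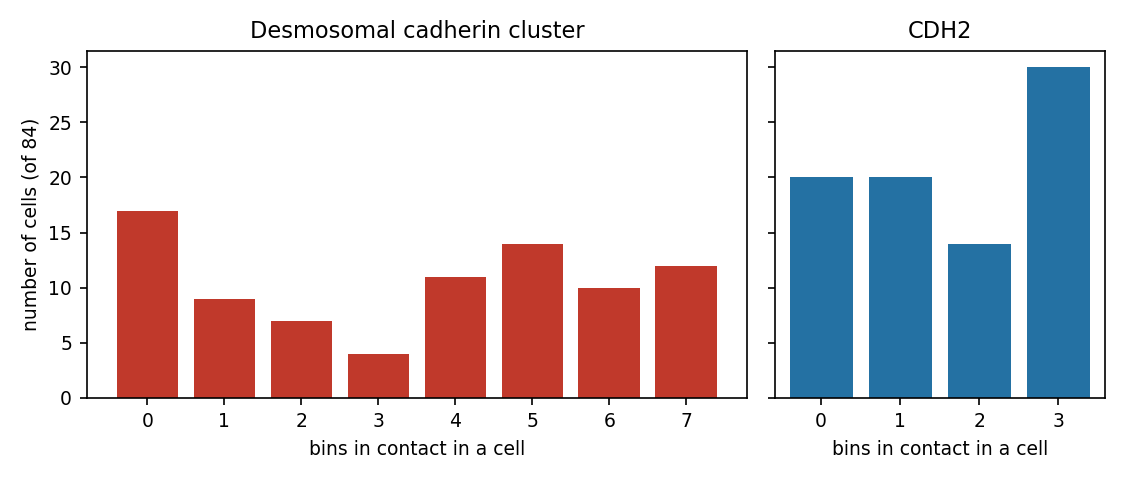
Number of cells (of 84) by the number of bins in contact in the cell, for the 7 cluster bins and the 3 CDH2 bins. The cluster has 17 cells without and 12 with all bins in contact and fewest cells, 4, at 3 bins, and CDH2 has most cells, 30, at all 3 bins.

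Depth and contact of the remaining chromosome were set beside these classes of cells. The 12 cells with all 7 bins had a median of 101676 reads and 42.1% of the remaining chromosome 18 in contact, and the 17 cells with none had 68756 reads and 26.1%. Their reads overlapped widely, with 25848 to 272997 in the cells with all bins and 11390 to 211371 in those with none. From 1 to 6 bins the median reads were 33332, 51486, 44125.5, 112491, 55723.5 and 81999. Over cells the share of cluster bins in contact correlated with log10 reads at 0.20, and the share of CDH2 bins at 0.39. The part of depth and of the remaining chromosome in the result was not tested. Ratios averaged over the cluster ran from 0, in cell 5, to 6.12 in cell 25, with a median of 1.27, and reached 1 in 51 cells (60.7%). For CDH2 the median was 1.42 and 49 cells reached 1 (58.3%). Its highest mean ratio, 19.2 in cell 39, was far above the next, 7.33 in cell 4, and all 3 CDH2 bins were highest in that cell. This was regional: cell 39 also had the highest ratio in every other bin from 24800001 to 26400000 except those from 25100001 and 25900001, with 28.0 in the bin after CDH2, from 25800001. Cell 39 had 33332 reads, 86 of them in the CDH2 bins, and just 1 of 7 cluster bins in contact.

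Contact at the DSG2 end came mostly with contact of at least 5 of the first 6 cluster bins. Of the 21 cells with the last bin in contact, 12 had all 7 bins (57.1%, 34.0 to 78.2%) and 16 had at least 5 of the first 6 (76.2%, 52.8 to 91.8%). In 18 of them the bin before it was in contact (85.7%, 63.7 to 97.0%). In the 63 cells without the last bin the bin before it was in contact in 22 (34.9%, 23.3 to 48.0%). No cell had the last bin alone, with 0 of 21, which allows up to 16.1% at the exact upper limit. Of the 18 cells with all of the first 6 bins in contact, 12 also had the last (66.7%, 41.0 to 86.7%). Past the cluster, the bin from 29200001 to 29300000 was in contact in 12 of these 21 cells (57.1%, 34.0 to 78.2%) and in 4 of the 63 others (6.35%, 1.76 to 15.5%). For the bin from 29400001 to 29500000 the counts were 2 of 21 and 0 of 63, so contact past the DSG2 end seldom reached this bin.

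Correlations of contact over cells describe how tightly the bins moved together. The share of covered bins in contact in the cell was regressed out of each first. All bins of a cell share its library and depth. Adjacent cluster bins had a mean Pearson r of 0.45 (0.41 to 0.54 over 6 pairs, 84 cells), close to the 0.45 of 396 adjacent pairs of chromosome 18 bins in contact in 20 to 80% of cells and the 0.42 of 11364 such pairs in all. Among the first 6 bins r was 0.38 to 0.60, with a mean of 0.47, with 0.43 between the first and the sixth, and 0.54 between the first and the second. The last bin correlated less with the other 6, at 0.16 to 0.41 with a mean of 0.29. The part of its lower frequency in this lower r was not tested.

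The share of cluster bins in contact correlated with the share of CDH2 bins at 0.31, or 0.39 without the correction. Corrected for the share of chromosome 18 in contact outside the window it was 0.25. The value was 0.62 in cells 1 to 29 against 0.17 in cells 30 to 86. Odd- and even-numbered cells differed nearly as much, at 0.47 and 0.14. Pairs of 1 cluster bin and 1 CDH2 bin averaged 0.17, as did 2303 pairs of chromosome 18 bins of 20 to 80% at the same distances, 2.8 to 3.6 Mb. Counted by mean ratio, 38 cells had both loci at 1 or more, 13 the cluster only, 11 CDH2 only and 22 neither. The cluster thus reached 1 in 77.6% (63.4 to 88.2%) of the 49 cells with CDH2 in contact and in 37.1% (21.5 to 55.1%) of the 35 cells without. Counted by all bins in contact there was no such contrast. All cluster bins were in contact in 13.3% of the 30 cells with all CDH2 bins and in 14.8% of the 54 others. No cluster bin was in contact in 30.0% of the 20 cells with no CDH2 bin and in 17.2% of the 64 others. These counts were not corrected for contact share or depth.

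**Figure D4:**
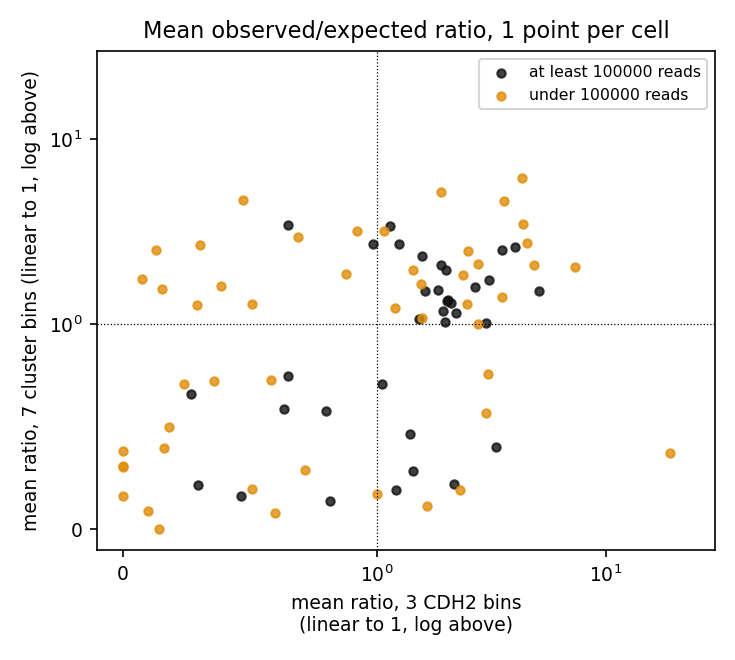
Mean ratio over the 7 cluster bins against that over the 3 CDH2 bins, 1 point per cell, with both axes linear to 1 and logarithmic above, and points marked by read number. In 38 cells both ratios are at least 1 and in 22 neither is, and the point at 19.2 on the CDH2 axis is cell 39.

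Bins outside the cluster were set against its share in contact as well. The cluster share correlated with the bin just before it, from 28400001, at 0.41, and with the bins between the loci at 0.05 to 0.41, median 0.24. Right of the cluster r was 0.49 in the bin from 29200001 and -0.02 in that from 29600001, and 0.45 in that from 30100001. The bins of the gap had few cells in contact, and their r rests on those cells. Beyond 24 to 31 Mb the most alike bins of chromosome 18 were 32400001 to 32500000 (r = 0.42, frequency 36.9%), 31400001 to 31500000 (0.37, 70.2%) and 5200001 to 5300000 (0.36, 57.1%), out of 653 bins with a median r of 0.08. On other chromosomes the highest of 24055 bins were chromosome 10 from 60600001 to 60700000 (0.39) and chromosome 7 from 146000001 to 146100000 and from 13800001 to 13900000 (both 0.37), with a median of 0.00120 over these bins. They are the highest of many values and were not set against chance.

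**Figure D5:**
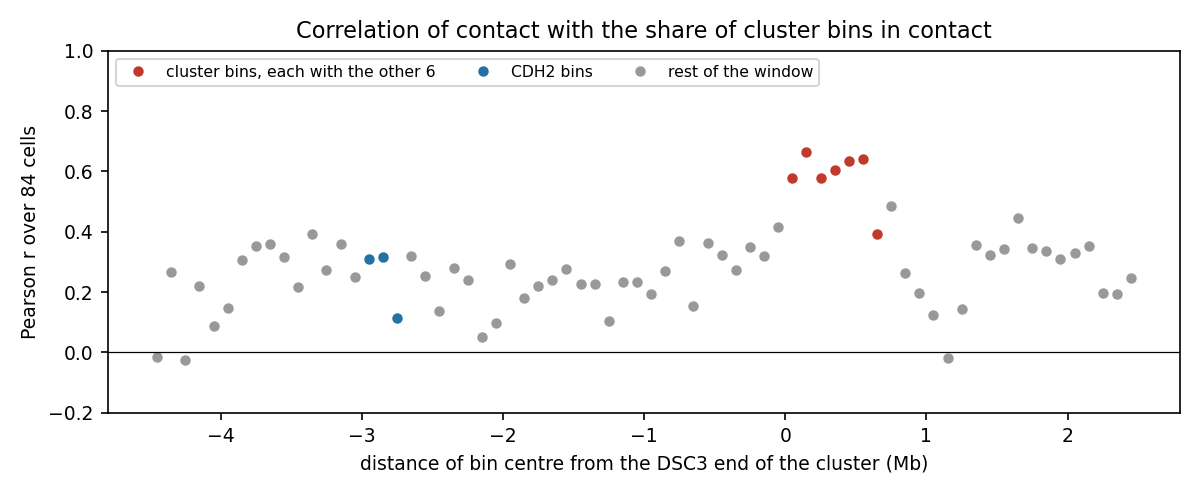
Pearson r over 84 cells between contact of each bin and the share of cluster bins in contact, after subtraction of the fit on contact share, by distance from the DSC3 end of the cluster in Mb. The first 6 cluster bins, each against the other 6 cluster bins, lie at 0.58 to 0.66, the last at 0.39, and the CDH2 bins at 0.11 to 0.32.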

How the data were processed

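Cutadapt, Bowtie2 2.1.0 and the build hg19 are named in the submitters' processing notes. The authors deposited 1 table of observed over expected ratios per 100 kb bin, and the treatment of duplicates and the basis of the expectation are not given. Duplicate handling and the scale of the expectation could both shift which bins pass a ratio of 1. Of 30376 bins, 3792 had no value, and 26414 were above 0 in at least 1 column and were used. The labels give all samples 1 group. No column was left out. A sample without a column is not analysed here.

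Reads were worked back from the ratios as whole multiples of a step per bin and a factor per column. Of the values above 0, 100% were whole to within 0.02. The step per bin corresponds to a relative expectation of 1 to 592 units (median 316, and 272 to 402 in the member bins), and no bin held more reads than its units. The recovery and the intervals were tested on simulated data. Calls of paired columns matched in 730 of 840 cases in the member bins (86.9%). The paired columns are not independent, so this does not measure reproducibility.

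Contact was a ratio of at least 1, and correlations used residuals of a linear fit on contact share. Python 3.11.15, numpy 2.4.6 and scipy 1.17.1 were used. Promoters and gene order came from RefSeq (GRCh38.p14), whose gene coordinates were not set against the bins. All members and every bin of both loci are named. Outside them, the extreme bins of the window and the 3 most alike bins on and off chromosome 18 are. Desmosomal plaque genes and other classical cadherins were to be given only with an hg19 annotation, and are not reported. The members, lists and alternatives were chosen with earlier results of these data known. Cell 39, the last cluster bin and the low gap were singled out after their values were seen.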

Additional observations from a re-analysis of the deposited data

How the results depend on the processing

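The 8 results were recomputed under 20 alternatives, 147 values in all. The mean frequency was 26.9 to 64.5% for the cluster and 32.5 to 68.6% for CDH2, lowest for both at a ratio cutoff of 2. The cluster minus CDH2 was -17.1 to 7.06 points and the cluster minus the rest of the window -15.2 to 5.51, both lowest in cells with at least 100000 reads. The SD over single cells is wider than these moves and says little about them. In cells 1 to 29 the cluster minus CDH2 turned to 7.06 points and the cluster minus the rest of the window to 5.51. The share of cells with no cluster bin was 6.90% there, against 27.3% in cells 30 to 86. In cells 1 to 29 the correlation of adjacent cluster bins was 0.39 and that of the cluster with CDH2 0.62. The share of cells with all 7 bins in contact was 25.0, 2.38 and 2.38% at ratio cutoffs of 0.5, 1.5 and 2, by construction, 23.8% with 3 bins averaged and 2.90% in the 69 cells thinned to 30000 reads, against 15.9% in the same cells before thinning. The share with none was 7.14% and 36.9% at cutoffs of 0.5 and 2. The adjacent correlation was 0.39 and 0.37 at these cutoffs, 0.73 with 3 bins averaged, which merges neighbours, 0.37 in the higher-numbered columns, 0.39 with 168 separate columns and 0.28 after thinning, and the cause was not tested. Thinning also leaves 1 column per cell in place of 2 averaged. The cells with at least 100000 reads, cell 5 and the correction by chromosome 18 were added after seeing the data, and without cell 5 the cluster minus CDH2 was -4.99. Without cells 48, 54 and 56, and without cells 63, 69 and 79, set apart in earlier work on these data, it was -5.64 and -3.47. No paired analysis was possible because the labels give 1 group, with no replicate numbers shared between groups, though loci were compared within cells. At the median depth a ratio of 1 rests on about 3 reads, so single-cell calls carry counting error that frequencies over 84 cells only average.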

Other observations

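Beyond the gap after DSG2, 1 cell had ratios far above the others. In cell 49, with 32748 reads, the ratio was 33.0, 34.6, 45.5, 48.1, 33.9, 18.1, 30.5 and 27.1 in the 8 bins from 29700001 to 30500000, the highest of all 84 cells in each, while the medians over cells in these bins were 0.861 to 2.30. The same cell had 5 of 7 cluster bins in contact at a mean ratio of 2.68 and no CDH2 bin, at 0.305. On the rest of chromosome 18 it had 12.8% of bins in contact, against a mean of 31.3% ± 11.4 (SD, n = 84).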
